A study of Homo sapiens with 6 samples.

Results

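The genes described here encode the proteasome: 48 of the 28278 gene symbols in the tables, taken by name as every symbol made of PSMA, PSMB, PSMC, PSMD, PSME, PSMF or PSMG and a number. Counts per gene were compared between 3 shTRIM21 and 3 shControl libraries of HCT116, an established human colon carcinoma line. The shControl cells, labelled WT, stably carried a scrambled shRNA, and the shTRIM21 cells, labelled TRIM21 knockdown, stably carried an shRNA against TRIM21. Both shRNAs were brought in by lentivirus, puromycin at 5 µg/ml followed 36 h after infection and lasted 2 to 3 weeks, and all cells are labelled day 21. The comparison thus rests on 1 cell line, the labels do not say how many shRNA constructs or clones were used, and both groups share infection and selection. RNA was total RNA depleted of ribosomal RNA. The labels call the libraries biological replicates but do not say whether those of a group came from separate cultures or infections, so p-values reflect how far these samples spread, and that spread may be technical only.

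The 26S proteasome is the large protease that degrades proteins tagged with ubiquitin. Its core particle is a barrel of alpha and beta rings, with the protease sites inside on beta subunits, and its regulatory particle holds ATPases that unfold substrates and non-ATPase subunits that bind and remove ubiquitin. Under interferon, cells can swap the constitutive catalytic subunits for immunoproteasome subunits, which favour peptides for display on MHC class I. TRIM21, a ubiquitin ligase and cytosolic antibody receptor, sends the targets it ubiquitinates to the proteasome. NFE2L1, a transcription factor processed by the protease DDI2, raises proteasome genes when proteasome activity is short.

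Library totals ran from 22656160 to 27123657 counts. TRIM21 itself fell in the shTRIM21 cells, from 13.1 ± 2.33 to 7.90 ± 1.10 CPM (counts scaled to a common library size; SD, n = 3 each), with a log2 fold change of -0.73 (SE 0.17, adjusted p = 0.0124). That call was lost when shTRIM21 replicate 3 was left out (-0.62) and when replicate 3 of each group was (-0.45). Replicate 3 of shControl stood apart from the other controls, with rRNA genes at 6.69% of its counts against 14.7% and 13.2%, and in shTRIM21 they took 15.2%, 13.5% and, in replicate 3, 9.55%. The third shControl library held the highest value of its group for 24 of the 44 tested proteasome genes (54.5%), against 39.4% of all 14002 tested genes. Among markers of the labelled cell type, EPCAM, KRT8 and KRT18 were present at 16.6 to 19.2, 40.3 to 47.7 and 76.3 to 81.2 CPM in shControl, while CDH1 was at 4.60, KRT19 at 1.30 and KRT20 at 0.215 CPM.

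Promoter stretches are shown for the interferon-inducible members and for PSMD5, to which the results return. RefSeq (GRCh38.p14) gave 51 promoter windows for 42 of the 48 genes, each from 250 bases before to 50 after an annotated start, and both strands were searched for 8 motifs. PSMA7, PSMB1, PSMB6, PSMB7, PSMD4 and PSMG3 were not matched. The core of the interferon-stimulated response element, GAAA followed after any 2 bases by another GAAA, was in 13.7% of the member windows and 3.28% of 24758 windows of all genes. Its matches are shown for the interferon-inducible genes that hold it, PSMB8 (chr6:32844032-32844061, plus strand), PSMB10 (chr16:67936852-67936881, minus strand), PSME1 (chr14:24136189-24136218, minus strand) and PSME2 (chr14:24146619-24146648, minus strand), with the motif in capitals.
PSMB8: aggaggaagtGAAAGCGAAAgccacagatc
PSMB10: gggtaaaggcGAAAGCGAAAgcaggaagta
PSME1: accgcgaaggGAAAGCGAAAgcggtagggc
PSME2: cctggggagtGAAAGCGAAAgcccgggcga
All 4 carry the same letters over the motif, including the unspecified bases, and so does PSMG4, a core particle chaperone. PSMA4 and PSMB4 also matched, with other letters at the unspecified bases. PSMB9, an immunoproteasome gene that was searched too, held no match. The core of the antioxidant response element, TGACNNNGC, read by NFE2L1 with small MAF proteins, was in 29.4% of member windows and 13.9% of all windows. Of the genes that changed, PSMD5 holds it and PSMD8 does not. In PSMD5 it lies 130 bases before the start (chr9:120843037-120843066, minus strand).
PSMD5: tggctacagtTGACACGGCcctaacggagg
The other motifs, for the members and for all windows, were the ETS site CCGGAAGT (19.6% and 4.96%), the STAT site core TTCNNNGAA (15.7% and 7.06%), CCAAT (39.2% and 34.8%), the AP-1 site TGAGTCA (5.88% and 4.395%), the palindromic nuclear respiratory factor site (3.92% and 1.42%) and the cAMP response element TGACGTCA (0% and 2.13%). The nuclear respiratory factor matches of the members are 1 site of PSMA4 that lies in 2 overlapping windows. All these shares are descriptions of letters and were not tested.

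Most proteasome genes differed little between shTRIM21 and shControl cells. PSMB7, a catalytic subunit of the core particle, and PSMD8, a non-ATPase subunit of the regulatory particle, rose about 1.20-fold each, and PSMD5, an assembly chaperone of the regulatory particle, fell to 0.841 of the control level. Of 44 tested members 2 rose, 1 fell and 41 did not pass at an adjusted p of 0.05 (quasi-likelihood test of edgeR, Benjamini-Hochberg over all genes). That is 6.82% of the tested members, where 9.08% of all tested genes were called (4.43% higher and 4.66% lower), so the members' share is near the background. An unadjusted p under 0.05 was reached by 11 members (25%), against 22.8% of all tested genes. The groups did not overlap for 14 members (31.8%), against 28.1% of all tested genes. A difference in CPM does not tell fewer cells expressing a gene from less RNA per cell.

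The median log2 fold change of the 44 members was 0.04, against 0.01 for all tested genes. It was 0.09 without shControl replicate 3 and 0.11 without replicate 3 of both groups. Among all tested genes 51.8% had a positive fold change, and among the tested members 31 did (70.5%). Fold changes ran from -0.25 for PSMD5 to 0.58 for PSMB10, with a median SE of 0.07. For 31 members the 95% interval of the fold change lay wholly within 1.25-fold in either direction, and for 42 it lay within 1.5-fold, so larger shifts were outside the intervals of nearly all members. Among all tested genes 31.1% had an interval within 1.25-fold, and among the 11389 genes in the members' range of CPM 37.5% did. Within 1.5-fold lay the intervals of 9070 of the 14002 tested genes and of 8951 of those 11389.

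**Figure D1:**
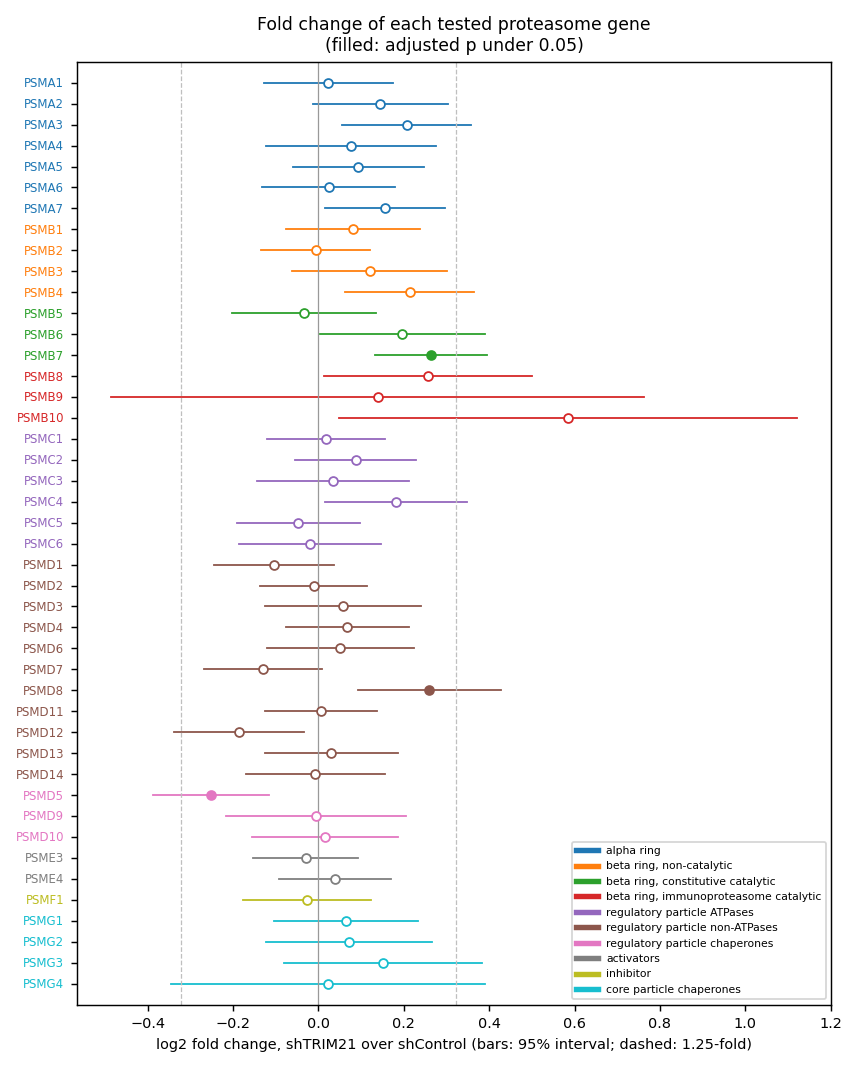
Log2 fold change of shTRIM21 over shControl for the 44 tested proteasome genes, grouped and coloured by role, with 95% intervals and dashed lines at 1.25-fold. PSMB7 and PSMD8 (filled, right of 0) and PSMD5 (filled, left of 0) passed the test, and the widest intervals belong to PSMB9 and PSMB10.

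In the core particle, the 14 constitutive alpha and beta subunits had a median log2 fold change of 0.11, with 12 positive and 2 negative, 1 called and 13 that did not pass. Their summed level was 1444, 1438 and 1551 CPM in shControl and 1595, 1570 and 1574 CPM in shTRIM21, so the groups did not overlap, and the mean was 6.91% higher in shTRIM21. The median kept its sign in all 16 alternative fits and ran from 0.08 to 0.17. The sum of the 17 ATPase and non-ATPase subunits of the regulatory particle was 2693, 2730 and 2909 CPM in shControl and 2757, 2710 and 2789 CPM in shTRIM21, with overlapping groups and a mean 0.901% lower (-0.901%). That mean went from 2777 to 2752 CPM, a smaller step than that of PSMD12 alone, from 402.5 to 353.8 CPM. The median fold change of the regulatory particle was 0.02, with 10 positive and 7 negative, and it turned negative (-0.02) without shControl replicate 1. Whether core and regulatory particle differ from each other was not tested.

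Of the alpha ring, whose subunits form the outer gate of the barrel, 0 of 7 tested genes passed in edgeR's test, 2 had an unadjusted p under 0.05, and DESeq2 also called none. All 7 fold changes were positive, from 0.02 to 0.21. PSMA3 stood at 66.7, 66.9 and 69.7 CPM in shControl and 76.3, 81.3 and 77.0 CPM in shTRIM21, without overlap, with a log2 fold change of 0.21 (SE 0.07, adjusted p = 0.0836). PSMA7 stood at 90.6, 91.1 and 90.1 CPM against 104, 101 and 97.0 CPM, also without overlap (0.16, SE 0.07, adjusted p = 0.17). PSMA4 had a high value in the third control and stood at 138, 145 and 195 CPM in shControl and 166, 170 and 168 CPM in shTRIM21. Its log2 fold change was 0.08 (SE 0.09, adjusted p = 0.687), and without shControl replicate 3 it was 0.25 (adjusted p = 0.00539), a call. PSMA3 (0.23, adjusted p = 0.0345) and PSMA2 (0.21, adjusted p = 0.0443) were also called without that library. Of the annotated exon bases of PSMA2, 14.6% are shared with AC010132.3 on the same strand and 19.55% lie opposite AC010132.2, so its counts are uncertain. PSMA8, the testis-specific alpha subunit, was listed at 0 in every library.

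The beta ring holds the protease sites. PSMB7, which carries the trypsin-like site, stood at 143, 150 and 142 CPM in shControl and 176, 169 and 177 CPM in shTRIM21, with all shTRIM21 libraries above all controls. The gene is at chr9:124353466-124415444 (GRCh38, minus strand), and the annotation has no other gene over its exons. It names 1 pseudogene each for PSMB7 and PSMD8, neither among the counted symbols. How multiply placed reads were counted is not given. Its mean went from 145 ± 4.35 to 174 ± 4.44 CPM (SD, n = 3 each), a log2 fold change of 0.26 (SE 0.06, 95% interval 0.13 to 0.39, adjusted p = 0.0122). The call was lost without shControl replicate 1 (adjusted p = 0.0646), without shTRIM21 replicate 3 (0.072) and with no scaling beyond the library total (0.0513), and over all alternatives the adjusted p ran from 0.000967 to 0.072. With a GC and length offset the rise was smaller (0.17) and still passed.

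The other constitutive sites did not pass. PSMB6, with the caspase-like site, stood at 36.6, 36.9 and 33.2 CPM in shControl and 43.1, 40.3 and 38.8 CPM in shTRIM21, without overlap (0.20, SE 0.09, adjusted p = 0.209). PSMB5, with the chymotrypsin-like site that bortezomib blocks, stood at 89.7, 88.9 and 77.3 CPM against 90.8, 80.3 and 78.8 CPM. Its groups overlapped, with a log2 fold change of -0.03 and a 95% interval from -0.20 to 0.14. Of the structural beta subunits PSMB1 to PSMB4, 0 of 4 passed in edgeR's test and 1 had an unadjusted p under 0.05, with 0 called by DESeq2. That was PSMB4, at 70.4, 73.1 and 69.8 CPM in shControl and 85.0, 78.3 and 83.9 CPM in shTRIM21 (0.21, SE 0.07, adjusted p = 0.0718).

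The immunoproteasome subunits were low in both groups. PSMB8, which takes the place of PSMB5, stood at 20.3, 19.5 and 18.5 CPM in shControl and 25.5, 21.8 and 22.4 CPM in shTRIM21, without overlap. Its log2 fold change of 0.26 (SE 0.12, 95% interval 0.01 to 0.50) did not pass (adjusted p = 0.195). PSMB10, which takes the place of PSMB7, stood at 3.19, 2.37 and 3.03 CPM against 4.16, 4.13 and 4.60 CPM, also without overlap, from raw counts of 58 to 119 per library. Its fold change was 0.58 (SE 0.26, 95% interval 0.05 to 1.12, adjusted p = 0.177), the furthest from 0 of any member and with a wide interval. Of the annotated exon bases of PSMB10, 34.75% are shared with AC040162.1 on the same strand. Those of PSMB9 are shared with PSMB8-AS1 on the same strand to 5.66%. How reads in such bases were counted is not given. PSMB9, which takes the place of PSMB6, stood at 3.27, 2.78 and 2.101 CPM against 2.47, 3.32 and 3.17 CPM from 59 to 82 counts, with overlapping groups and an interval from -0.49 to 0.76. In edgeR's test 0 of these 3 genes passed and 2 had an unadjusted p under 0.05, with 0 called by DESeq2.

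PSMB8 is at chr6:32840717-32844703 (minus strand), in the MHC region, and 20.6% of its annotated exon bases are shared with PSMB8-AS1 on the plus strand. PSMB8-AS1, named here after its values were seen, rose from 8.17 ± 1.51 to 12.7 ± 2.13 CPM (SD, n = 3 each; 0.63, SE 0.18, adjusted p = 0.031). That call was lost without shControl replicate 1, without each shTRIM21 library (adjusted p up to 0.17, log2 fold change down to 0.49) and without replicate 3 of each group. The strand setting of the counting is not given in the sources used here, so reads in those 618 shared bases cannot be assigned to one gene of the pair. Per kilobase of exons PSMB8 was at 13.3%, 12.9% and 14.1% of PSMB5 in shControl and 16.5%, 15.98% and 16.7% in shTRIM21, without overlap. PSMB10 was at 2.15%, 1.52% and 2.06% of PSMB7 in shControl and 2.28%, 2.36% and 2.50% in shTRIM21. PSMB9 was at 3.58% ± 0.613 of PSMB6 in shControl and 3.48% ± 0.671 in shTRIM21 (SD, n = 3 each). PSMB11, the thymus-specific catalytic subunit, was listed at 0 in every library.

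**Figure D2:**
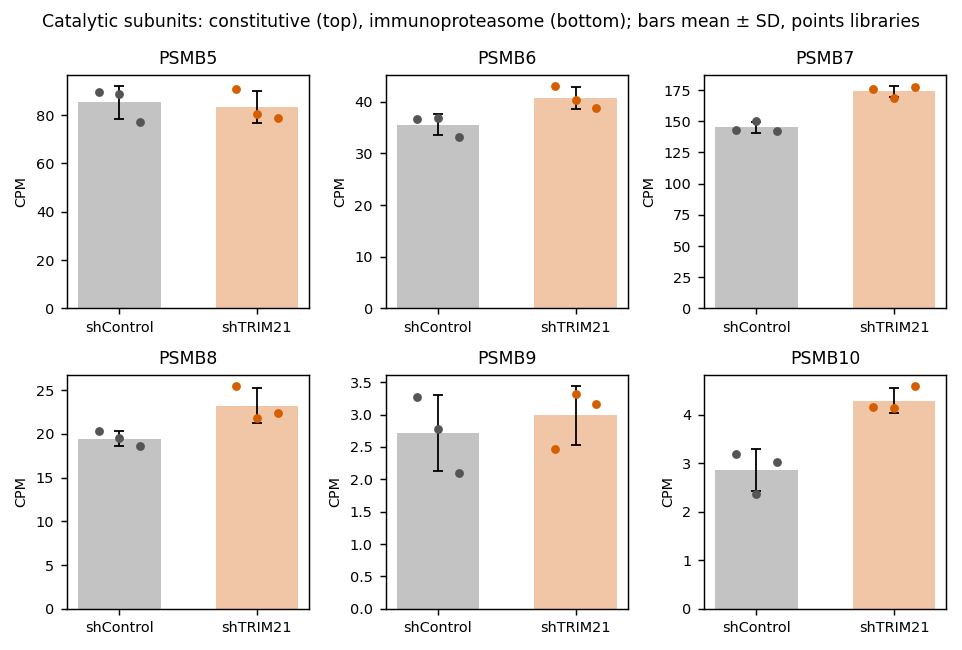
CPM of the constitutive catalytic subunits (top) and of the immunoproteasome subunits that replace each of them (bottom) in shControl and shTRIM21, as mean ± SD (n = 3) with a point per library. PSMB6, PSMB7, PSMB8 and PSMB10 have no overlap between groups, and of these PSMB7 passed the test.

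Immune cells carry much immunoproteasome, so leukocyte markers were read beside these values. PTPRC, CD3E, CD14, LYZ, AIF1, CSF1R and HLA-DRA together held 6, 8 and 0 counts in shControl and 0, 12 and 0 in shTRIM21, and LYZ and AIF1 were at 0 throughout. Of the 2 other markers, CD74 was at 9.55 ± 0.968 and 7.95 ± 0.928 CPM without a call, and CD68, a lysosomal protein also made outside leukocytes, rose from 436 ± 41.2 to 648 ± 36.0 CPM (SD, n = 3 each; adjusted p = 3.80e-05). The markers named here summed to between 408 and 491 CPM in shControl and between 625 and 695 CPM in shTRIM21, nearly all of it CD68. The part of such cells in the values above was not tested.

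In the regulatory particle, 0 of the 6 ATPases passed in edgeR's test, 1 had an unadjusted p under 0.05 and DESeq2 called 0. PSMC4 was the ATPase whose groups did not overlap, at 59.8, 60.0 and 62.8 CPM in shControl and 74.4, 63.2 and 69.4 CPM in shTRIM21 (0.18, SE 0.08, adjusted p = 0.179). Of the annotated exon bases of PSMC1, 75.8% lie opposite NRDE2, so its counts are uncertain. Of 11 non-ATPases 1 rose, 0 fell and 10 did not pass.

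PSMD8, a lid subunit of the regulatory particle, stood at 122, 127 and 106 CPM in shControl and 156, 130 and 139 CPM in shTRIM21. The groups did not overlap, but shControl replicate 2 and shTRIM21 replicate 2 were close. The gene is at chr19:38374536-38383824 (plus strand), and its mean went from 118 ± 10.6 to 142 ± 13.3 CPM (SD, n = 3 each; 0.26, SE 0.08, 95% interval 0.09 to 0.43, adjusted p = 0.0474). The call sat at the threshold and was made in 5 of 16 alternative fits, with adjusted p from 0.009 to 0.222. It was lost by limma-voom (0.0536), without rRNA genes (0.0534), with relative log expression scaling (0.0531), with no scaling (0.081), without replicate 3 of each group (0.0921), with a GC and length offset (0.0843, log2 fold change 0.15) and without any 1 library other than shControl replicate 2 (0.0524 to 0.222).

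Non-ATPase subunits without overlap also included genes lower in shTRIM21. PSMD12, the second most abundant non-ATPase, stood at 379, 375 and 454 CPM in shControl and 337, 354 and 371 CPM in shTRIM21 (-0.19, SE 0.07, adjusted p = 0.126), and without shControl replicate 3 its fold change was -0.09. PSMD7, a partner of the deubiquitinase PSMD14, stood at 115, 112 and 117 CPM against 101, 106 and 107 CPM (-0.13, SE 0.07, adjusted p = 0.25), and was called with the GC and length offset (-0.19, adjusted p = 0.0144). Of its annotated exon bases 30.7% lie opposite AC009120.2, so its counts are uncertain. PSMD4, the ubiquitin receptor, stood at 82.1, 78.7 and 79.5 CPM against 83.3, 84.7 and 83.9 CPM, a shift of 0.07 without overlap. PSMD2, the main scaffold, was at 642 ± 7.60 and 637 ± 23.4 CPM (SD, n = 3 each), and its 95% interval of -0.14 to 0.11 was among the narrowest of the members.

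Of the 3 assembly chaperones of the regulatory particle 1 fell. PSMD5, which holds the base of the regulatory particle apart from the core until it is complete, stood at 224, 220 and 250 CPM in shControl and 195, 198 and 191 CPM in shTRIM21. Every shTRIM21 library lay below every control, and the shTRIM21 libraries were close together. The gene is at chr9:120815496-120842984 (minus strand), and its log2 fold change was -0.25 (SE 0.06, 95% interval -0.39 to -0.11, adjusted p = 0.0206). The call was lost without shTRIM21 replicate 1 (0.0548), 2 (0.0679) or 3 (0.106), with no scaling beyond the library total (0.0668) and without replicate 3 of each group (0.0801), where the fold change was -0.17. The other chaperones of the regulatory particle, PSMD9 and PSMD10, were at 31.6 ± 1.03 and 57.8 ± 3.25 CPM in shControl and 31.5 ± 2.98 and 58.4 ± 3.75 CPM in shTRIM21. Of the core chaperones PSMG1 to PSMG4, 0 of 4 passed in edgeR's test, 0 had an unadjusted p under 0.05 and DESeq2 called 0. PSMG3 was the one without overlap, at 23.6008, 22.2 and 20.2 CPM against 24.5, 25.1 and 23.6038 CPM (0.15, SE 0.11, adjusted p = 0.456), so its nearest libraries were all but tied. Without shControl replicate 3 its fold change was 0.10.

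The 3′ UTR of PSMD5 holds AGTGGAA, a 7-mer that went with lower fold changes in an earlier scan of these same data, at chr9:120817725-120817745 on the minus strand, shown with the 7-mer in capitals.
PSMD5 3′ UTR site: aatgcaaAGTGGAActaggag
It was in the longest annotated 3′ UTR of 8 of 44 tested members (18.2%) and of 16.2% of 11839 tested genes. The other members with it were PSMA4, PSMB5, PSMD7, PSMD9, PSME3, PSMF1 and PSMG4, none of which passed the test. GTGTCAC, which went with higher fold changes in that scan, was in 3 members (6.82%, against 9.87% of tested genes) and in neither PSMB7 nor PSMD8. Since both 7-mers were picked on these libraries, they support nothing here.

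Activators cap the core in place of the regulatory particle. PSME3, the nuclear activator, stood at 311, 303 and 323 CPM in shControl and 308, 300 and 309 CPM in shTRIM21, with an interval of the log2 fold change from -0.15 to 0.09. PSME4 stood at 172, 182 and 177 CPM against 173, 183 and 189 CPM, with an interval from -0.09 to 0.17. PSMF1, an inhibitor of the core, was at 99.3 ± 5.96 and 97.5 ± 4.43 CPM (SD, n = 3 each). In edgeR's test 0 of these 3 passed, 0 had an unadjusted p under 0.05 and DESeq2 called 0. PSME1 and PSME2, the interferon-inducible activator subunits whose promoter sites are shown above, were listed at 0 in all libraries. CANX and RPL7A, which nearly every cell uses, were listed at 0 too, so these zeros are not read as absence. The same holds for the zeros of PSMA8, PSMB11, LYZ and AIF1.

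**Figure D3:**
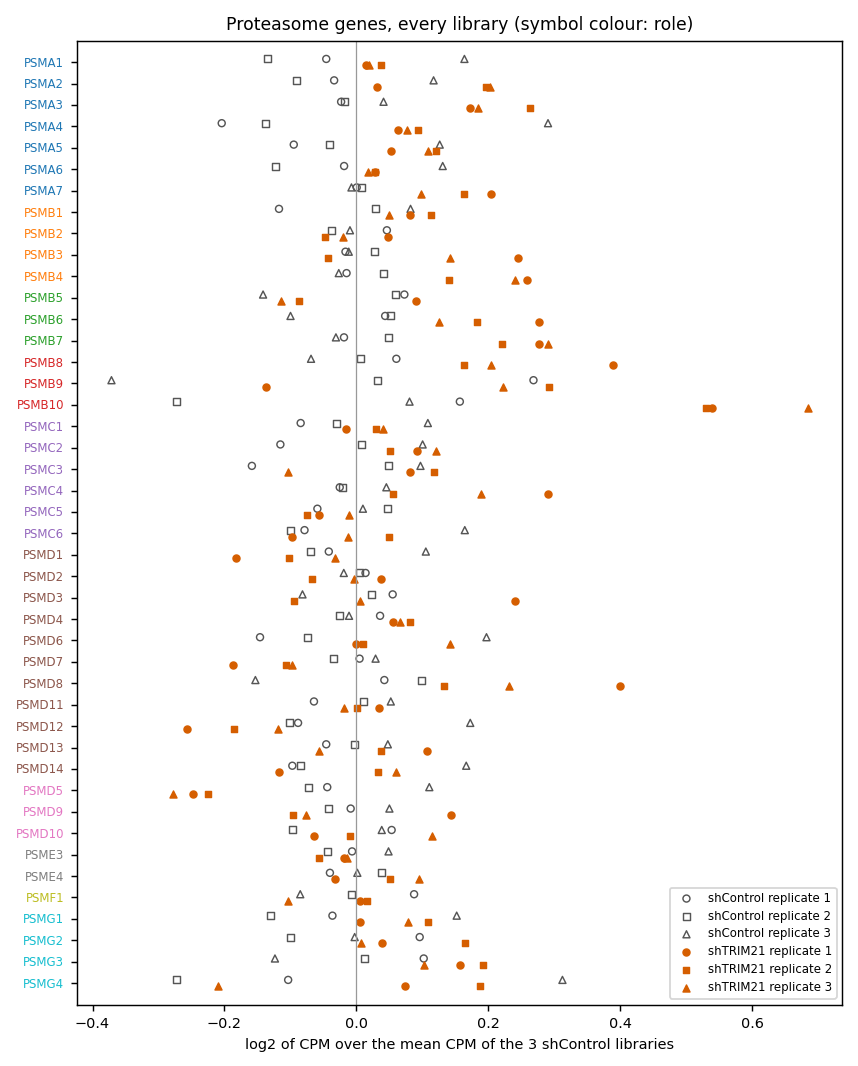
Level of each tested proteasome gene in every library, as log2 of CPM over the mean of the 3 shControl libraries (open grey symbols shControl, filled orange shTRIM21, symbol shape the replicate). Most genes stay within 0.3 of the control mean, and shControl replicate 3 (open triangle) is the highest control for 24 of 44 genes.

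Levels differed far more between subunits than between groups. Per kilobase of annotated exons and over all 6 libraries, PSMD2 was the highest at 117 ± 2.89 CPM per kb (SD, n = 6), followed by PSMB7 at 89.3 ± 9.17, PSMD12 at 70.5 ± 7.48, PSME3 at 60.0 ± 1.53, PSMA1 at 57.6 ± 3.95 and PSMA7 at 54.7 ± 3.51. PSME3 and PSMA1, and PSMA1 and PSMA7, lay within their summed SDs of each other. The 14 constitutive core subunits, which enter each particle in equal number, spanned 14.8 to 89.3 CPM per kb with a median of 34.7, and the 17 subunits of the regulatory particle spanned 12.7 to 117 with a median of 27.1. At the low end stood PSMB8 at 7.12 ± 0.824, PSMD9 at 3.60 ± 0.227, PSMB10 at 1.93 ± 0.458, PSMG4 at 1.05 ± 0.169 and PSMB9 at 0.929 ± 0.160 CPM per kb, and the last pair did not differ beyond their SDs. Annotated exons include forms these cells may not make. With the length of the longest transcript instead, the median over the 44 members was 37.4 in place of 24.99 CPM per kb, with PSMD2 and PSMB7 still first and PSMB9 still last. The order between them changed: PSMA1 came next at 124.6, ahead of PSMA7 at 93.6, PSME3 at 91.8 and PSMD12 at 85.8 CPM per kb, and PSMG4 stood at 2.37 against 1.07 for PSMB9.

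**Figure D4:**
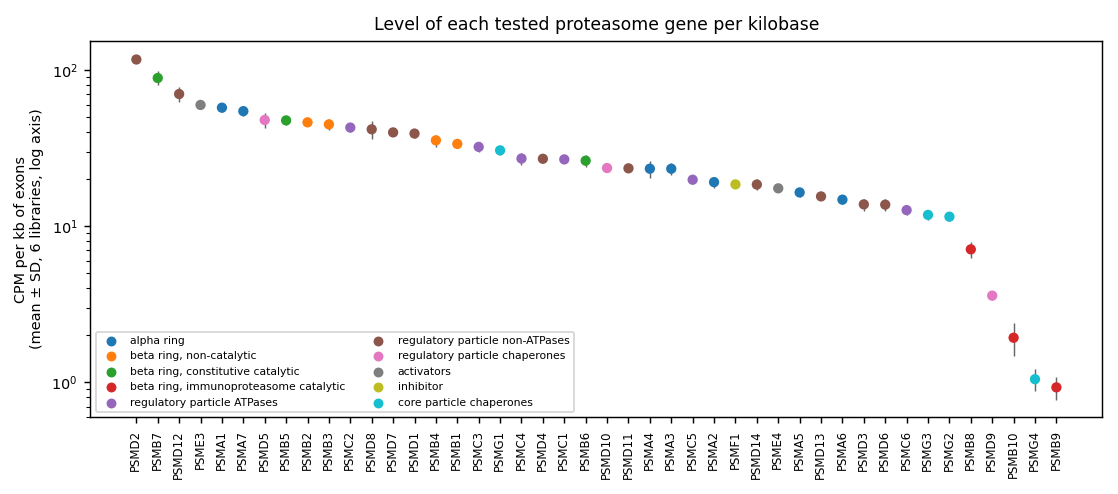
CPM per kilobase of annotated exons for the 44 tested proteasome genes in falling order (log axis), mean ± SD over all 6 libraries, coloured by role. PSMD2 is first at 117 and PSMB9 last at 0.929 CPM per kb, and the 3 immunoproteasome subunits are among the last 5.

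Base composition was also read beside the fold changes. Across the 44 members, GC content of the longest transcript and log2 fold change had a Pearson r of 0.43 and a Spearman rho of 0.35, against 0.17 and 0.23 across 13454 tested genes with annotation. Without shControl replicate 3 the members' r was 0.23, without shTRIM21 replicate 1 it was 0.26, and without each of the other libraries it was between 0.46 and 0.53. The points share the same 6 libraries, and genes are not independent replicates. With a GC and length offset the members' r was 0.0037, their median fold change was 0.01, and 4 members were called: PSMB7, PSMD5, PSMA2 (0.19, adjusted p = 0.0205) and PSMD7. The same offset lowered the log2 fold change of PSMA7 from 0.16 to 0.02, of PSMB6 from 0.20 to 0.07, of PSMC4 from 0.18 to 0.07 and of PSMG3 from 0.15 to 0.0048, and PSMD4 turned from 0.07 to -0.04. PSMD12 went from -0.19 to -0.12 with it.

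**Figure D5:**
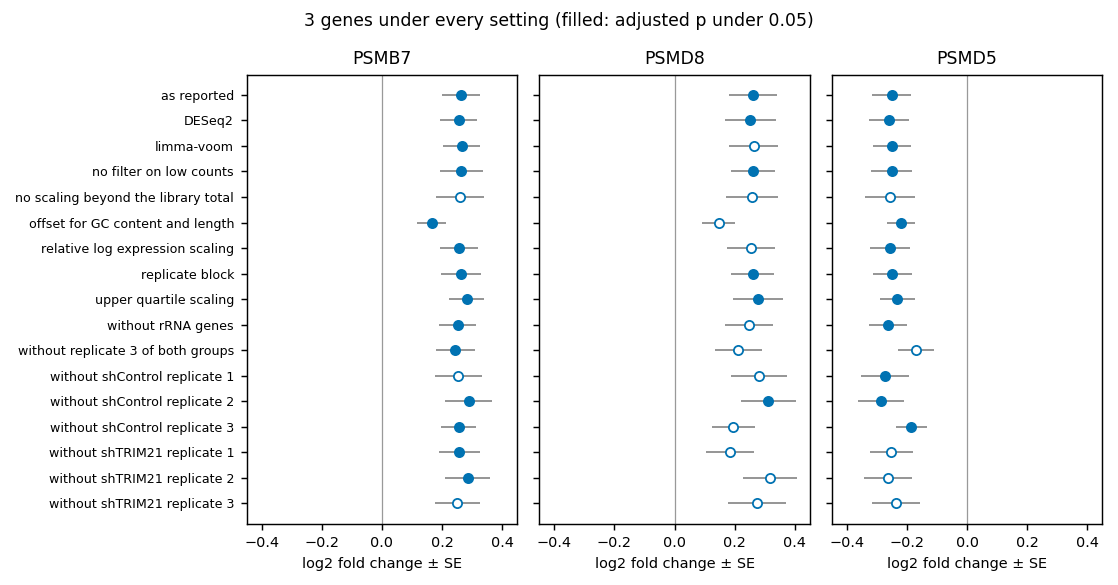
Log2 fold change ± SE of PSMB7, PSMD8 and PSMD5 as reported and under 16 alternative fits, filled where the adjusted p was under 0.05. PSMB7 and PSMD8 stay right of 0 and PSMD5 left of 0 in every fit, while PSMD8 is called in 5 of the 16.

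Lists of genes around the proteasome, chosen with earlier results known, were read the same way. Of 14 partners outside the symbol rule 0 rose, 1 fell and 13 did not pass. ECPAS, which clamps core and regulatory particle together, fell from 260 ± 5.30 to 226 ± 9.38 CPM (SD, n = 3 each; -0.20, SE 0.06, adjusted p = 0.0457). POMP, the maturation factor of the core, stood at 99.1, 94.5 and 117 CPM in shControl and 111, 118 and 127 CPM in shTRIM21 (0.20, SE 0.08, adjusted p = 0.144). It passed in 3 of 16 alternative fits: without shControl replicate 3 (0.30, adjusted p = 0.00551), without replicate 3 of each group (0.25, 0.0262) and with the GC and length offset (0.18, 0.0394).

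Of 10 genes of NFE2L1 and NFE2L2 and their processing, 1 rose, 1 fell and 8 did not pass. NFE2L1 stood at 176, 178 and 158 CPM in shControl and 172, 171 and 180 CPM in shTRIM21 (0.03, 95% interval -0.11 to 0.17). DDI2, the protease that activates it, fell from 188 ± 10.2 to 163 ± 2.18 CPM (-0.21, SE 0.06, adjusted p = 0.045; with the GC and length offset -0.12, 0.103), and MAFG, a small MAF partner, rose from 42.1 ± 3.10 to 54.2 ± 4.54 CPM (SD, n = 3 each; 0.36, SE 0.09, adjusted p = 0.017).

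Of 12 neighbours and regulators of the immunoproteasome 0 rose, 1 fell and 11 did not pass. ERAP1, which trims peptides for MHC class I, fell from 86.0 ± 2.42 to 72.8 ± 3.79 CPM (SD, n = 3 each; -0.24, SE 0.07, adjusted p = 0.0444). TAP1, the peptide transporter next to PSMB9, stood at 28.96, 36.9 and 27.8 CPM against 33.2, 32.3 and 36.3 CPM (0.12, SE 0.11, adjusted p = 0.567). With 1 library removed its fold change ran from 0.05 (without shControl replicate 3) to 0.26 (without shControl replicate 2). Over all 16 alternatives its lowest value was 0.0018. IRF1, which drives PSMB9 and TAP1 under interferon, stood at 8.59, 9.85 and 9.29 CPM against 9.18, 7.55 and 6.30 CPM (-0.27, SE 0.18, adjusted p = 0.41). With 1 library removed its fold change ran from -0.42 (without shTRIM21 replicate 1) to -0.14 (without shTRIM21 replicate 3), and it was -0.13 without replicate 3 of both groups. ECPAS, DDI2 and ERAP1 kept their call in only 10, 8 and 7 of 16 alternative fits, with adjusted p up to 0.177, 0.229 and 0.167. ERAP1 lost its call whichever single library was removed (adjusted p at least 0.0529). MAFG lost its call in 2 of 16 (up to 0.107).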

How the data were processed

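Total RNA depleted of rRNA was sequenced in 6 libraries, and the authors deposited raw, whole-number counts per gene symbol. TopHat2 2.1.1, edgeR 3.38.1, limma 3.52.2 and hg38 are named in the submitters' processing notes. How reads were counted (tool, annotation, strand, multiply placed reads) is not given in the sources used here. Groups were compared with edgeR 4.0.16 (R 4.3.3; default filter, TMM, quasi-likelihood) with no term besides the group, Benjamini-Hochberg adjustment over 14002 genes and a threshold of 0.05, after the code was tested on simulated data. CPM use TMM-scaled library sizes, and the SE is the log2 fold change over the root of F. Positions, exon lengths and GC content come from GENCODE release 29. Alternatives covered scaling, filter, DESeq2 1.42.0, limma-voom (limma 3.58.1), single libraries removed, a block for replicate number, rRNA genes left out and a GC and length offset. Every called, catalytic and activator gene and every gene without overlap between groups is named, with called genes of 3 pathway lists and NFE2L1, POMP, TAP1 and IRF1. The members and lists were chosen with earlier results of these data known. No column of the tables was left unused. Some genes of the lists are not reported here.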

Additional observations from a re-analysis of the deposited data

How the results depend on the processing

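PSMB7, PSMD8 and PSMD5 kept their direction in all 16 alternative fits, and 22 of the 44 members changed direction in at least 1, none with a reported log2 fold change beyond 0.14. Against 3 members called, 0 passed with no scaling beyond the library total and 5 with upper quartile scaling, and 0 to 5 without 1 library. At an unadjusted p under 0.05 there were 8 with no scaling and 9 without shTRIM21 replicate 3, where edgeR called 0, against 11 as reported. Members that rose numbered 1 with limma-voom, relative log expression scaling or no rRNA genes, 0 with no scaling, 4 with upper quartile scaling and 0 to 4 without 1 library, against 2. Members that fell numbered 0 with no scaling and without replicate 3 of both groups, 2 with the GC and length offset and 0 to 1 without 1 library, against 1. The median of the members was 0.11 without replicate 3 of both groups and 0.019 to 0.091 without 1 library, against 0.04. Genes called in all numbered 602 (without shTRIM21 replicate 3) to 1865 (with the GC and length offset) against 1272. Without 1 library the most were 1737 (without shControl replicate 3). TRIM21 was at -0.45 without replicate 3 of both groups, losing its call, and at -0.82 to -0.56 without 1 library. The members that turned in sign, none of them called as reported, numbered 6 without replicate 3 of both groups, 4 with upper quartile scaling and 9 with the GC and length offset. Of the genes whose fold change is given above, those that did so in these settings were NFE2L1 (-0.038) and PSMB9 (-0.058) without replicate 3 of both groups, PSMD2 (0.0076) with upper quartile scaling and PSMD4 (-0.041) with the GC and length offset. Without 1 library NFE2L1 ran from -0.016 to 0.059, PSMA4 from -0.016 to 0.25, PSMB5 from -0.10 to 0.0057, PSMB9 from -0.014 to 0.29, PSMD2 from -0.035 to 0.017 and PSME3 from -0.052 to 0.0020. By the longest transcript the median level was 37.4 in place of 24.99 CPM per kb. For these shifts the cause was not tested. Deviations from the group mean correlated between libraries of equal number at 0.096, -0.012 and 0.091. The second shControl library correlated more with shTRIM21 replicate 1 (0.048) than with its own number. The share of rRNA genes was lowest in replicate 3 of both groups. With 3 libraries per group such correlations cannot tell whether equal numbers share a batch, and pairing was not tested. With the replicate number as a block, 1699 genes and 3 members (2 that rose, 1 that fell) were called, the members' median was 0.045, and TRIM21 was at -0.72. With 22656160 to 27123657 counts per library, PSMB9 and PSMB10 rested on 58 to 119 counts and had the widest intervals of the members.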
